A study of Rattus norvegicus with 57 samples.

Results

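The response of the rat kidney cortex to a single dose of cisplatin was compared between day 5 and day 3 after dosing. The measure was the change of the effect: (3 mg/kg minus control on day 5) minus (3 mg/kg minus control on day 3), on the log2(signal + 16) scale, for each of 11683 genes. A positive change means that 3 mg/kg stood higher against its same-day control on day 5 than on day 3. The comparison used 20 of the 57 arrays of the series, 5 in each of 4 groups chosen by their labels: 3 mg/kg on day 5, control on day 5, 3 mg/kg on day 3 and control on day 3. All rats were male Han Wistar [Crl:WI(Han)], 8 weeks old, and received 1 intraperitoneal injection of cisplatin in saline or of saline alone. The tissue was cortex-enriched kidney homogenate, each array held the RNA of 1 kidney sample on an Affymetrix Rat 230 2.0 array, and different rats were killed on each day. The design text gives n = 6 per group, and the sixth rats were not analysed here. The titles number the arrays of each group as biological replicates. The remaining groups, at 1 mg/kg and on days 8 and 26, entered only the pooled estimate of the spread and the values set beside the result.

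Cisplatin is a platinum compound taken up by the cells of the proximal tubule, where it forms crosslinks in DNA. The damage activates the transcription factor p53, which drives a set of cell cycle arrest and stress genes. Tubular cells that are injured lose part of their transport function and begin to make secreted or membrane proteins such as KIM-1, clusterin, lipocalin 2, osteopontin and fibrinogen, and cells that survive can re-enter the cell cycle to repair the epithelium.

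The arrays had the signal pattern of kidney cortex. Summed signals of 6 proximal tubule markers were 13699 to 15927 in 3 mg/kg rats and 13625 to 14942 in control rats on day 5, and 14496 to 15823 in 3 mg/kg rats and 12876 to 14630 in control rats on day 3. Of all the markers of 13 cell types, none passed the test for a changed effect. Further measured properties moved with the 4 groups. The 3'/5' signal ratio of the actin control probe sets, which follows RNA integrity, averaged 5.42 ± 0.38 in 3 mg/kg rats and 5.07 ± 0.39 in control rats on day 5, and 5.89 ± 0.10 in 3 mg/kg rats and 4.66 ± 0.25 in control rats on day 3 (SD, n = 5 each). The day 3 groups did not overlap in it. Signals of Alb, the liver's albumin transcript, averaged 3.42 ± 1.28 in 3 mg/kg rats and 6.44 ± 2.28 in control rats on day 5, against 147 ± 77.2 in 3 mg/kg rats and 315 ± 129 in control rats on day 3, so that every day 3 array lay above every day 5 array. Summed blood cell markers (Hbb, Alas2, S100a8) ran from 361 to 1612 in 3 mg/kg rats and 950 to 2597 in control rats on day 5, and from 513 to 1084 in 3 mg/kg rats and 1633 to 2778 in control rats on day 3. The changes below were counted again with the actin ratio and with the Alb signal as covariates, which gave 63 and 57 called genes, and the part of blood content was not tested. In a homogenate, fewer cells of a type and less RNA per cell cannot be told apart.

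The change of the effect passed an adjusted p of 0.05 in limma for 177 of 11683 genes, or 1.52%. The effect was higher on day 5 in 67 of them (0.573%) and lower in 110 (0.942%). At an unadjusted p under 0.05 there were 1873 genes, 741 higher and 1132 lower, and the median change over all genes was -0.02. The 2 daily effects themselves were much broader. On day 5, 1028 genes (8.80%) differed between 3 mg/kg and control, 620 higher (5.31%) and 408 lower (3.49%). On day 3 there were 1151 such genes (9.85%), 651 higher (5.57%) and 500 lower (4.28%). Of these, 767 genes passed on day 5 and not on day 3, and 890 on day 3 and not on day 5, but the change itself passed in 61 of the first and 81 of the second. Most genes that passed on 1 day alone had no called change between the days. Treated rats, each taken minus the mean of its same-day controls, did not overlap between the days in 1564 genes (13.4%), among them 65 of the 67 higher and 106 of the 110 lower genes.

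**Figure D1:**
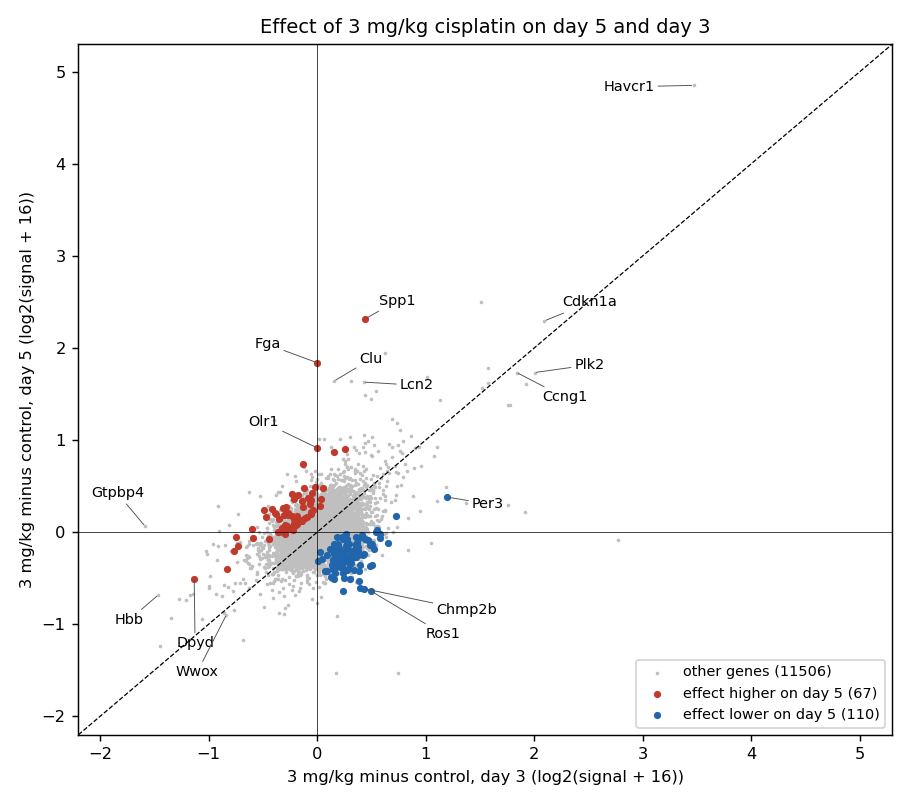
Each point is 1 of 11683 genes, plotted by its 3 mg/kg minus control difference on day 3 (x axis) and day 5 (y axis), both log2(signal + 16); the dashed line marks equal effects. The 67 genes with a higher effect on day 5 (red) lie above the line and the 110 with a lower effect (blue) below it, while Cdkn1a, Ccng1 and Plk2 lie close to it.

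The called genes began from different states. Of the 67 genes with a higher effect on day 5, 25 were above control on day 5 and not called on day 3, 34 were below control on day 3 and not called on day 5, 2 were below control on both days (Dpyd and Slc39a11), and 6 passed on neither day. The 110 genes with a lower effect comprised 47 that were above control on day 3 and not called on day 5, 36 that were below control on day 5 and not called on day 3, 12 that were above control on day 3 and below it on day 5, and 15 that passed on neither day. The 2 contributions to the change, from 3 mg/kg rats and from controls, were of similar size. For the 67 higher genes the median difference between day 5 and day 3 was 0.22 in 3 mg/kg rats and -0.20 in controls. For the 110 lower genes it was -0.26 in 3 mg/kg rats and 0.27 in controls. The control difference was the larger of the pair in 31 of the 67 and 60 of the 110 genes, and passed its own test in 30 and 42 of them. Between 3 mg/kg rats alone, 487 genes differed between day 5 and day 3, against 520 between control rats. Each day had its own rats, so the day and the set of animals cannot be told apart.

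**Figure D2:**
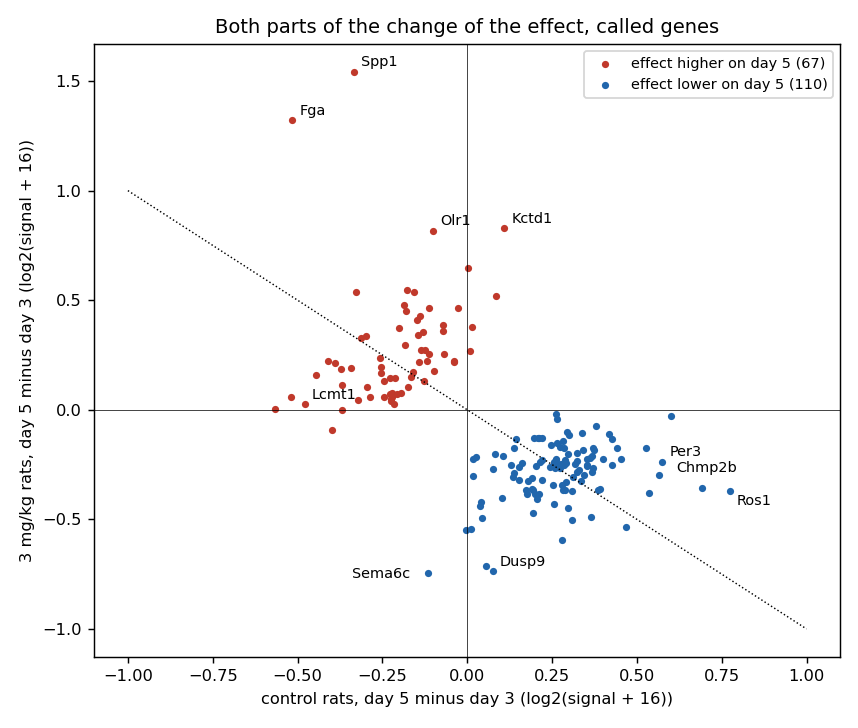
The 177 called genes are plotted by the difference between day 5 and day 3 in control rats (x axis) and in 3 mg/kg rats (y axis), both log2(signal + 16); the dotted line marks parts of equal size and opposite sign. Spp1, Fga, Olr1 and Kctd1 stand out by their rise in 3 mg/kg rats, whereas Ros1 and Chmp2b lie far to the right, where control rats were higher on day 5 than on day 3.

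The largest rise was that of Spp1, which encodes osteopontin, a secreted phosphoprotein made by injured tubules. On day 5 its signals were 5033, 2746, 4737, 1827 and 3066 in 3 mg/kg rats, against 882, 859, 352, 540.02 and 756 in controls. On day 3 they were 1079, 1372, 1166, 637 and 1517 in 3 mg/kg rats, against 817, 764, 783, 868 and 843 in controls. All 5 treated rats lay above all controls on day 5, and 4 of 5 did so on day 3 by a much smaller margin. The effect was 2.31 ± 0.29 on day 5 (adjusted p = 1.62e-07) and 0.44 ± 0.29 on day 3 (adjusted p = 0.341), and the change between them was 1.88 ± 0.41 (adjusted p = 0.0105, limma). At the next time, day 8, the Spp1 effect was 2.54 ± 0.29. At 1 mg/kg the corresponding change between day 3 and day 5 was 0.46 ± 0.44 (adjusted p = 0.998), and for all genes 0 passed at that dose in limma, with 432 at an unadjusted p under 0.05. The 1 mg/kg group held 3 arrays on day 5.

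Fga, which encodes the alpha chain of fibrinogen, followed. Fibrinogen is a clotting protein made chiefly in the liver, and its 3 chain genes lie side by side in the genome. On day 5 the Fga signals were 304, 132, 354, 73.6 and 135 in 3 mg/kg rats, against 42.49, 40.01, 48.7, 28.3 and 27.1 in controls. Day 3 signals were 57.2, 46.48, 64.4, 67.8 and 62.9 in 3 mg/kg rats, against 75.2, 60.6, 56.6, 47.8 and 58.6 in controls. The groups were apart on day 5 and overlapped throughout on day 3, when the effect was 0.0016 ± 0.28 (adjusted p = 0.998). The day 5 effect was 1.84 ± 0.28 (adjusted p = 9.7e-06) and the change was 1.84 ± 0.40 (adjusted p = 0.0104). Part of that change came from the controls, whose Fga differed by -0.52 between day 5 and day 3, while 3 mg/kg rats differed by 1.32. Spp1 and Fga were the only called genes whose positive change reached 1 on the log2 scale, and both passed without each of the 20 arrays in turn and with the actin ratio as a covariate.

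The changes of the other chains did not pass. Signals of Fgb, the beta chain, were 80.54, 24.6, 84.53, 28.4 and 30.4 in 3 mg/kg rats on day 5, against 16.3, 17.3, 13.96, 17.7 and 14.47 in controls. The treated rats were all above controls that day, with an effect of 0.92 ± 0.26 (adjusted p = 0.0167). The Fgb effect on day 3 was 0.12 ± 0.26 and its change 0.80 ± 0.36 (adjusted p = 0.267). Fgg, the gamma chain, had signals of 7.31 to 26.45 in 3 mg/kg rats and 3.32 to 10.2 in controls on day 5, which overlapped, and a change of 0.82 ± 0.27 (adjusted p = 0.109). By day 8 the effects were 2.81 for Fga, 2.78 for Fgb and 1.86 for Fgg. In the list of fibrinogen and acute phase genes, 1 of 11 had a changed effect (Fga), and the median change was 0.29, beside -0.02 over all genes. The day 3 signals of Fgg were 7.21 to 12.4 in 3 mg/kg rats and 12.1 to 19.3 in controls. Signals of Alb, another transcript made in liver, were 1.77 to 5.10 in 3 mg/kg rats and 2.66 to 8.27 in controls on day 5, and 83.99 to 275 in 3 mg/kg rats and 148 to 421 in controls on day 3. Fga passed with the Alb signal as a covariate (adjusted p = 0.0232).

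The 250 bases before the transcript start of the 3 chain genes are shown because the interleukin 6 pathway acts on fibrinogen genes in liver through short promoter motifs. They were taken from RefSeq (GRCr8), at chr2:170671919-170672168 on the plus strand for Fga, chr2:170700876-170701125 on the minus strand for Fgb and chr2:170652833-170653082 on the plus strand for Fgg. Capitals mark matches, on either strand, to the interleukin 6 response motif CTGGGAA and to the STAT motif TTCNNNGAA, and no 2 matches overlap.
Fga: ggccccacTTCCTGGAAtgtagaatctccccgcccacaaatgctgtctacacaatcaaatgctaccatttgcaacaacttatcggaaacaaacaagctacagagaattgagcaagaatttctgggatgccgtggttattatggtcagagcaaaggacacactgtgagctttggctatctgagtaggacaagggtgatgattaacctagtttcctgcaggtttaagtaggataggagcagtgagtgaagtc
Fgb: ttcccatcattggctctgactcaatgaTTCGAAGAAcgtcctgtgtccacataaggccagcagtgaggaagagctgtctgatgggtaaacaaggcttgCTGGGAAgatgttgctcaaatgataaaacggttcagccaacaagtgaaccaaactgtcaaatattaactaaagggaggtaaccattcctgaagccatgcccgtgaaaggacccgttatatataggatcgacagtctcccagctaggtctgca
Fgg: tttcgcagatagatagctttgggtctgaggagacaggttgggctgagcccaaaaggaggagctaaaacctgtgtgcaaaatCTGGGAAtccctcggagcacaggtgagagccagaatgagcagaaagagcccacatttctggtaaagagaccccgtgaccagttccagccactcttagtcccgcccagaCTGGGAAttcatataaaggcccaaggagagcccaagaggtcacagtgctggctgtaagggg
Fga held 1 match to TTCNNNGAA and 0 to CTGGGAA, Fgb 1 to each, and Fgg 0 to TTCNNNGAA and 2 to CTGGGAA. Among 33469 windows of the same length, 9.555% held CTGGGAA and 7.667% held TTCNNNGAA. The matches are a description of these letters and were set against no binding data.

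**Figure D3:**
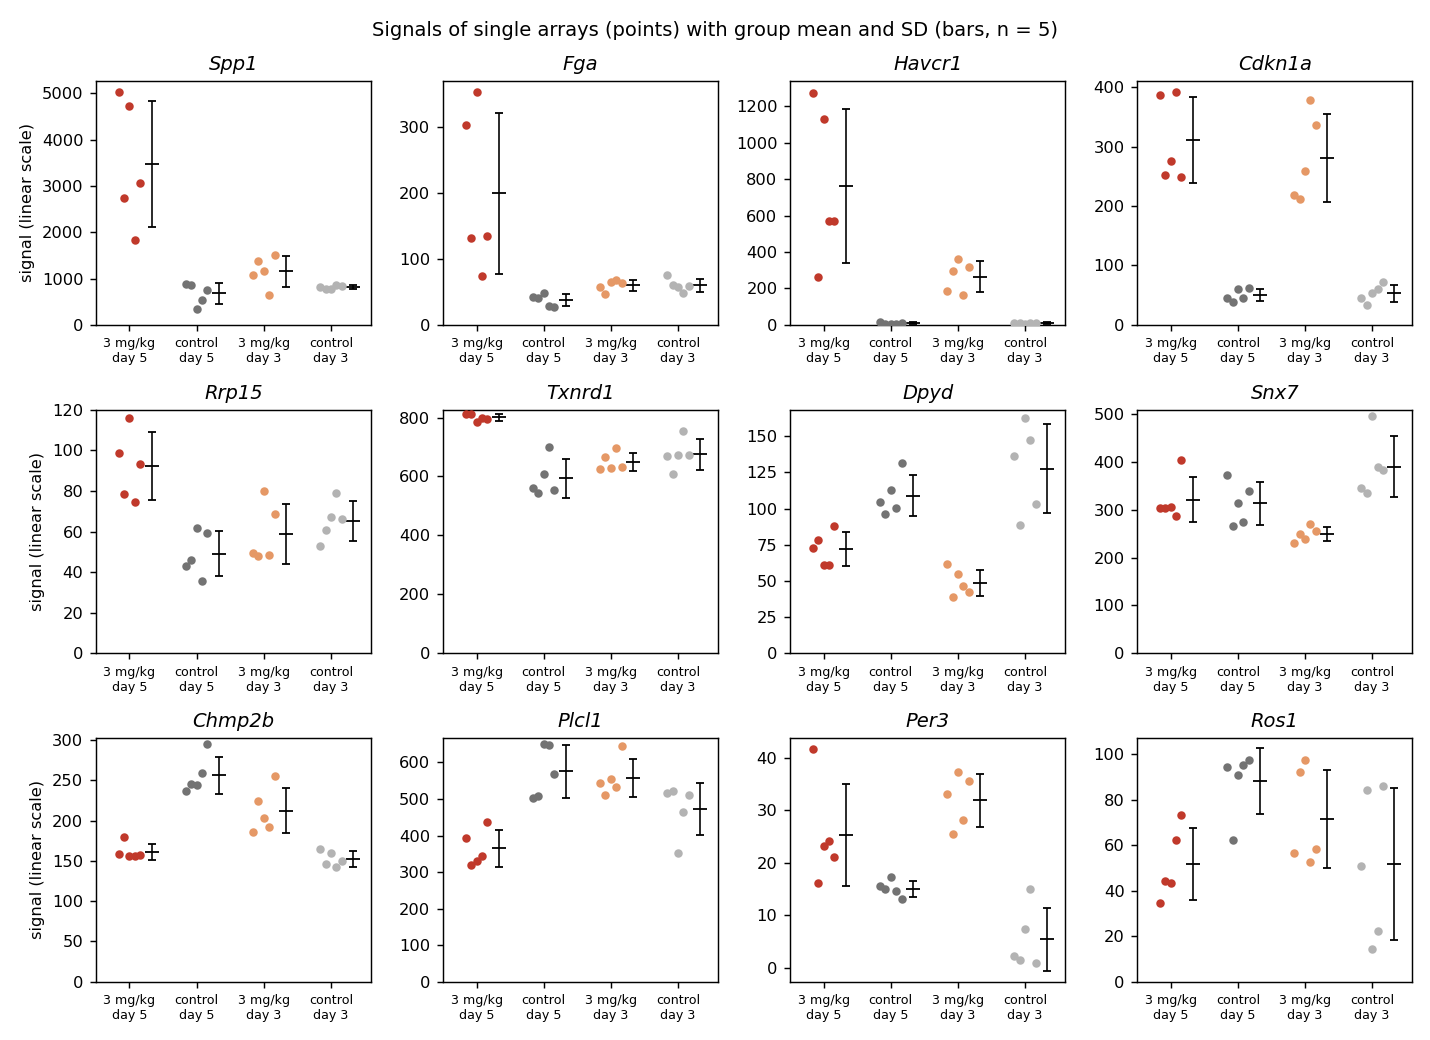
Signals (linear scale) of the single arrays are shown as points for 12 genes in 3 mg/kg rats and controls on day 5 and day 3, with the group mean and SD (n = 5) as bars. Spp1 and Fga in 3 mg/kg rats lay above their controls and above the 3 mg/kg rats of day 3 on day 5, Cdkn1a in 3 mg/kg rats lay above its controls on both days, and Chmp2b in 3 mg/kg rats lay below its controls on day 5 and above them on day 3.

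Other known injury markers had large effects whose change between the days did not pass. Havcr1 encodes KIM-1, a membrane receptor of injured proximal tubule cells. Its signals on day 5 were 1275, 265, 1128, 570.1 and 569.7 in 3 mg/kg rats, against 17.7, 5.41, 6.71, 1.94 and 8.24 in controls. The day 3 arrays gave 185, 293, 359, 166 and 318 in 3 mg/kg rats, against 8.03, 10.6, 1.83, 11.8 and 11.1 in controls. Treated rats exceeded every control on both days, and 1 of the 5 day 5 rats lay within the range of the day 3 rats. The change of the Havcr1 effect was 1.38 ± 0.88, with a 95% interval of -0.38 to 3.15 (adjusted p = 0.455). Clu, the secreted chaperone clusterin, had signals of 1626, 338, 1233, 286 and 397 in 3 mg/kg rats and 189, 161, 203, 169.6 and 191 in controls on day 5, and its effect was 1.64 ± 0.38 on day 5 and 0.16 ± 0.38 on day 3. Its change of 1.48 ± 0.53 did not pass (adjusted p = 0.142). Lcn2, the iron-binding lipocalin NGAL, had a change of 1.20 ± 0.48 (adjusted p = 0.199), and Timp1, an inhibitor of matrix metalloproteinases, had 0.80 ± 0.42 (adjusted p = 0.338).

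The injury list had more calls on day 5 than on day 3, a difference of counts that was not itself tested. Of its 27 measured genes, 13 rose on day 5 and 2 on day 3, while the change passed for 1, Spp1. For comparison with this and later lists, 5.31% of all genes rose and 3.49% fell on day 5. On day 3, 5.57% rose and 4.28% fell, and the change passed for 1.52%. The median effect of the injury list was 0.42 on day 5 and 0.16 on day 3, and its median change was 0.31, beside -0.02 over all genes. The 5 treated rats of day 5 were not alike: replicates 1 and 3 held the 2 highest signals among them in 19 of the 27 genes, as they did for Clu, Lcn2 and Timp1. That spread enters the error of each change. With replicate 1 of the day 5 treated rats left out, the count of genes called on day 5 was 547 in place of 1028.

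Many genes of the p53 response stood above control on both days, and none of the 24 measured had a called change. Cdkn1a encodes the cell cycle inhibitor p21. Its signals were 387, 251, 276, 392.3 and 249.53 in 3 mg/kg rats on day 5, against 44.50, 38.52, 59.7, 45.49 and 62.49 in controls. On day 3 they were 218, 212, 259.6, 378 and 337 in 3 mg/kg rats, against 45.6, 34.02, 53.6, 60.51 and 72.00 in controls. Treated rats exceeded every control on both days, the treated rats of the 2 days overlapped, and the change of the effect was 0.20 ± 0.27, with a 95% interval of -0.34 to 0.74 (adjusted p = 0.775). Changes on the same scale were -0.10 ± 0.13 for Ccng1 (cyclin G1), -0.27 ± 0.19 for Plk2 (a polo-like kinase), -0.25 ± 0.11 for Mdm2 (the ligase that degrades p53) and -0.38 ± 0.19 for Phlda3 (an inhibitor of Akt signalling), with adjusted p values of 0.761, 0.513, 0.271 and 0.311. Of 24 measured p53 targets, 14 rose and 1 fell on day 5, 13 rose and 1 fell on day 3, and the change passed for 0 in limma, with 0 higher and 4 lower at an unadjusted p under 0.05. Among all genes 5.31% rose and 3.49% fell on day 5, and 5.57% rose and 4.28% fell on day 3. The median change of the list was -0.016, beside -0.02 over all genes.

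Olr1, Kctd1 and Glycam1 stood above control on day 5, with groups that overlapped on day 3. Olr1, the scavenger receptor LOX-1 for oxidised low-density lipoprotein, had signals of 55.46, 23.8, 47.48, 25.6 and 32.1 in 3 mg/kg rats on day 5, against 14.2, 7.499, 14.1, 9.91 and 11.2 in controls. On day 3 the ranges were 9.74 to 17.9 in 3 mg/kg rats and 5.20 to 19.4 in controls, which overlapped. Its change was 0.92 ± 0.23 (adjusted p = 0.0318), and it passed in 11 of the 20 fits that left out 1 array, with adjusted p up to 0.0736. Kctd1, a BTB-domain repressor of AP-2 transcription factors, had signals of 319, 314, 308, 269 and 316 in 3 mg/kg rats on day 5, against 192, 155, 176, 134 and 146 in controls. Its ranges on day 3 were 144 to 189 in 3 mg/kg rats and 131 to 163 in controls. The Kctd1 change was 0.72 ± 0.14 (adjusted p = 0.00576), it passed without each array in turn, and its effect on day 8 was -0.14 (adjusted p = 0.271). Glycam1, a secreted mucin-like glycoprotein, had signals of 25.8 to 51.8 in 3 mg/kg rats and 6.603 to 17.47 in controls on day 5, which did not overlap. The Glycam1 change was 0.64 ± 0.18 (adjusted p = 0.0472) and passed in 5 of the 20 fits that left out 1 array.

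Rrp15 and Pum3, named for the size of their change, both take part in ribosome assembly. Rrp15, a nucleolar factor for ribosomal RNA processing, had signals of 98.6, 78.4, 116, 74.53 and 93.1 in 3 mg/kg rats on day 5, against 43.00, 46.1, 61.6, 35.6 and 59.2 in controls. Day 3 signals were 49.50, 47.9, 80.2, 48.4 and 68.7 in 3 mg/kg rats, against 52.7, 61.00, 67.2, 79.04 and 66.01 in controls. The groups separated on day 5 and overlapped on day 3, and the change was 0.87 ± 0.19 (adjusted p = 0.0129). Pum3, a nucleolar Pumilio-family protein, changed by 0.61 ± 0.13 (adjusted p = 0.0105), of which 0.16 lay between the 3 mg/kg rats and -0.45 between the controls. A separate list of 44 measured nucleolar genes, which did not include Rrp15 or Pum3, held 1 called change. In it 9 genes rose on day 5, and 4 rose and 2 fell on day 3. Among all genes 5.31% rose on day 5, and 5.57% rose and 4.28% fell on day 3. The called gene was the RNA helicase Ddx10, at 0.48 ± 0.13 (adjusted p = 0.0486). Ddx10 passed in 3 of the 20 fits that left out 1 array (adjusted p up to 0.12) and not with the actin ratio as a covariate (adjusted p = 0.116). The median change of the list was 0.04, beside -0.02 over all genes. Gtpbp4, a GTPase of the same pathway, had the largest change of the list at 1.65 ± 0.55 but did not pass (adjusted p = 0.105). Its signals were 148 to 331 in 3 mg/kg rats and 102 to 354 in controls on day 5, and 72.7 to 449.8 in 3 mg/kg rats and 562 to 731 in controls on day 3, so the day 3 controls stood apart from the 3 other groups.

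Txnrd1, the cytosolic thioredoxin reductase and a target of the antioxidant factor NRF2, rose on day 5. Its signals were 812, 813, 784, 798 and 796 in 3 mg/kg rats on day 5, against 559.53, 542, 609.6, 700.3 and 556 in controls. The day 3 arrays gave 626, 667, 628, 696 and 632 in 3 mg/kg rats, against 669.54, 607, 672, 756 and 671 in controls. The 5 treated rats of day 5 lay close together and above all 15 other arrays, whereas the day 3 groups overlapped. The change was 0.48 ± 0.11 (adjusted p = 0.0121), and the effect was 0.43 on day 5 and 0.39 on day 8. It was the 1 called gene of 24 antioxidant and metallothionein genes, of which 6 rose on day 5 and 5 on day 3. The shares of all genes that rose were 5.31% on day 5 and 5.57% on day 3. Srxn1, the sulfiredoxin of the same response, had an effect of 0.94 on day 5 and 0.75 on day 3, both passing, and a change of 0.20 ± 0.29 (adjusted p = 0.8).

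Several further genes with roles in signalling and protein folding were singled out after their values were seen. Myd88, the adaptor of Toll-like and interleukin 1 receptors, had signals of 208 to 283 in 3 mg/kg rats and 166 to 202 in controls on day 5, which did not overlap. The Myd88 change was 0.46 ± 0.093 (adjusted p = 0.00807). Ccnd3, cyclin D3 of the G1 phase, changed by 0.48 ± 0.099 (adjusted p = 0.00807), mostly through lower controls on day 5 (-0.37 in controls and 0.11 in 3 mg/kg rats). Among the 8 subunits of the TRiC chaperonin, a cytosolic ring that folds actin and tubulin, the change passed for 3. They were Cct5 at 0.33 ± 0.075, Cct4 at 0.28 ± 0.073 and Cct2 at 0.26 ± 0.073, with adjusted p values of 0.0165, 0.0404 and 0.0494. Cct5 passed without each array in turn and with the actin ratio as a covariate, whereas Cct4 passed in 8 and Cct2 in 4 of the 20 fits that left out 1 array and neither with that covariate (adjusted p = 0.0845 and 0.13). The median change of the 8 was 0.14, 7 were positive and Cct6a was at -0.092. Cct5 had signals of 980.3 to 1071 in 3 mg/kg rats and 748 to 898 in controls on day 5. These subunits were chosen as a group because of their values, so their count is a description.

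A second kind of positive change consisted of genes that were low in 3 mg/kg rats on day 3 and nearer to control on day 5. Dpyd, the enzyme that starts the breakdown of uracil and thymine, is encoded by a very long gene. Its signals were 72.6, 78.3, 61.3, 60.9 and 88.2 in 3 mg/kg rats on day 5, against 104, 96.3, 113, 100.2 and 131 in controls. On day 3 they were 61.4, 38.95, 54.46, 46.4 and 42.46 in 3 mg/kg rats, against 136, 88.3, 162, 148 and 103 in controls. Treated rats lay below every control on both days, by a wider margin on day 3: the effect was -0.51 ± 0.12 on day 5 and -1.13 ± 0.12 on day 3. The change was 0.63 ± 0.17 (adjusted p = 0.0405), passing in 7 of the 20 fits that left out 1 array, and the day 8 effect was -0.52. Slc39a11, a zinc transporter chosen after its values were seen, likewise fell on both days, at -0.41 on day 5 and -0.83 on day 3, with a change of 0.43 ± 0.10 (adjusted p = 0.024). Without replicate 4 of the day 3 treated rats or replicate 5 of the day 5 treated rats Slc39a11 did not pass, with adjusted p up to 0.0509.

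Snx7, a sorting nexin of endosomal membranes, had signals of 304, 304, 305, 287 and 404 in 3 mg/kg rats on day 5, against 374, 266, 314, 274 and 340.46 in controls. Day 3 signals were 232, 249.7, 239, 270.3 and 255 in 3 mg/kg rats, against 346, 335, 497, 389 and 384 in controls. The groups overlapped on day 5 and were fully apart on day 3, when treated rats were lower. The Snx7 change was 0.64 ± 0.16 (adjusted p = 0.0302), and on day 8 the effect was -0.50 (adjusted p = 0.000332). Snx7 passed in 15 of the 20 fits that left out 1 array (adjusted p up to 0.0644) and not with the actin ratio as a covariate (adjusted p = 0.0732). Nubpl, an assembly factor of mitochondrial complex I, showed the same order: the effect was -0.056 on day 5 and -0.75 on day 3, and the change 0.69 ± 0.18 (adjusted p = 0.0397), which passed in 8 of the 20 fits that left out 1 array. Dnajb6, a co-chaperone of HSP70, had an effect of 0.16 on day 5 and -0.47 on day 3, with a change of 0.63 ± 0.13 (adjusted p = 0.00984). Plxdc2, a transmembrane protein with a plexin domain, had 0.25 on day 5 and -0.41 on day 3, and its change was 0.66 ± 0.15 (adjusted p = 0.0129). Dnajb6 and Plxdc2 passed without each array in turn and with the actin ratio as a covariate.

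For the remaining leading rises, the change was 0.72 ± 0.19 for Sync (an intermediate filament protein), 0.64 ± 0.17 for Mcub (an inhibitory subunit of the mitochondrial calcium uniporter) and 0.60 ± 0.16 for Slc41a2 (a magnesium transporter), with adjusted p values of 0.0397, 0.0397 and 0.0414. None of these 3 passed with the actin ratio as a covariate, and they passed in 9, 8 and 6 of the 20 fits that left out 1 array. Mcub signals were 7.53 to 21.9 in 3 mg/kg rats and 5.07 to 10.1 in controls on day 5, and its change was 1.57 with no offset (adjusted p = 0.208) and 0.24 with an offset of 64. Among all genes 3.49% fell on day 5 and 4.28% on day 3. Of 35 measured very long genes, which are sensitive to lesions that block transcription, 0 rose and 6 fell on day 5, and 0 rose and 7 fell on day 3. The change passed for Dpyd (higher) and for Ralgapa1, a regulator of Ral GTPases (lower, -0.40 ± 0.11, adjusted p = 0.0414, passing in 6 of the 20 fits that left out 1 array). The median change of the list was 0.08. Wwox, a tumour suppressor gene within a fragile site, had an effect of -0.90 on day 5 and -0.84 on day 3, and a change of -0.06 ± 0.16 (adjusted p = 0.9).

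The effect on Chmp2b, a subunit of the ESCRT-III membrane-cutting complex, fell and crossed 0. Its signals on day 5 were 159, 179, 155, 156 and 157 in 3 mg/kg rats, against 236, 245, 245, 259.52 and 295 in controls. The day 3 arrays gave 186, 225, 203, 192 and 256 in 3 mg/kg rats, against 165, 146, 159.53, 142 and 149.52 in controls. Treated rats lay below every control on day 5 and above every control on day 3. The effect was -0.61 ± 0.11 on day 5 (adjusted p = 0.00018) and 0.43 ± 0.11 on day 3 (adjusted p = 0.00781), and the change was -1.05 ± 0.16 (adjusted p = 0.000112). The larger part came from the controls, at 0.69 between day 5 and day 3, with -0.36 in 3 mg/kg rats, and on day 8 the effect was 0.37. The call held without each array in turn and with the actin ratio as a covariate.

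Chmp2b was 1 of 12 genes called above control on day 3 and below it on day 5. The others were Aamdc, Cxcr5, Gpcpd1, Klhl12, LOC102548022, Lrrfip2, Ranbp2, Slc12a7, Tmem68, Wnt2b and Zfp646. LOC102548022, for which no role is given, had signals of 1.58 to 6.76 in 3 mg/kg rats and 12.2 to 16.99 in controls on day 5, and 11.7 to 15.9 in 3 mg/kg rats and 4.33 to 8.30 in controls on day 3. All 20 lay below the median of every array. The change of -1.002 ± 0.13 (adjusted p = 7.12e-06) therefore depended on the offset in size, at -3.04 with no offset and -0.35 with an offset of 64, and passed with both. Gpcpd1, a phosphodiesterase that releases choline, changed by -0.75 ± 0.15, and Lrrfip2, a regulator of Toll-like receptor signalling, by -0.75 ± 0.13. Ranbp2, a large nucleoporin with SUMO ligase activity that falls outside the naming rule, had signals of 219.52 to 294 in 3 mg/kg rats and 277 to 358 in controls on day 5, and 251 to 312 in 3 mg/kg rats and 206 to 263 in controls on day 3. The Ranbp2 change was -0.68 ± 0.13 (adjusted p = 0.00646).

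Plcl1, a phospholipase C-like protein without catalytic activity, fell on day 5. Its signals were 394, 320.1, 329, 343 and 438 in 3 mg/kg rats on day 5, against 501, 509, 650.2, 649 and 567 in controls. On day 3 they were 544, 510.49, 554, 533 and 646 in 3 mg/kg rats, against 518, 521, 351, 464 and 512 in controls. Treated rats lay below all controls on day 5, and the groups overlapped slightly on day 3. The change was -0.87 ± 0.17 (adjusted p = 0.00576), and the effect remained negative on day 8 at -0.48. Dusp9, a phosphatase of MAP kinases, had an effect of -0.42 on day 5 (adjusted p = 0.0538) and of 0.39 on day 3 (adjusted p = 0.0735), neither passing, and a change of -0.81 ± 0.20 (adjusted p = 0.0318). The Dusp9 change lay almost wholly between the 3 mg/kg rats (-0.74) and not between the controls (0.075). It passed in 14 of the 20 fits that left out 1 array.

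Ros1, a receptor tyrosine kinase, varied widely within groups. On day 5 its signals were 34.48, 44.2, 43.3, 62.4 and 73.2 in 3 mg/kg rats, against 94.45, 62.4, 91.04, 95.3 and 97.4 in controls. Day 3 signals were 56.48, 92.00, 97.47, 52.4 and 58.45 in 3 mg/kg rats, against 50.99, 84.4, 14.3, 22.51 and 85.9 in controls. The groups overlapped on both days, and the controls of day 3 spread most. The Ros1 change was -1.14 ± 0.29 (adjusted p = 0.0333), or -1.55 with no offset and -0.67 with an offset of 64, with 0.77 between the controls, and it passed in 11 of the 20 fits that left out 1 array. Cul4a, the scaffold of ubiquitin ligases that act in DNA damage recognition, overlapped on both days as well, with 148 to 209 in 3 mg/kg rats and 183 to 367 in controls on day 5. The Cul4a change was -0.92 ± 0.24 (adjusted p = 0.0397) and passed in 9 of these fits. Cdca4, a nuclear protein of the cell cycle, was above every control on day 3, at 63.00 to 91.01 in 3 mg/kg rats and 46.9 to 59.52 in controls. Its change was -0.86 ± 0.19 (adjusted p = 0.0142).

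The other leading falls were those of Plekhj1 (-0.85 ± 0.22), H4cl1, a histone H4 gene (-0.77 ± 0.17), Plppr3, a phospholipid phosphatase-related membrane protein (-0.74 ± 0.19), Bcan, the matrix proteoglycan brevican (-0.70 ± 0.15), and Neb, the muscle filament protein nebulin (-0.68 ± 0.18). Of them, H4cl1 and Bcan passed without each array in turn, whereas Plekhj1 passed in 3, Neb in 7 and Plppr3 in 15 of the 20 fits that left out 1 array. Bcan was dim, at 10.7 to 14.04 in 3 mg/kg rats and 10.97 to 19.2 in controls on day 5, and 11.50 to 17.6 in 3 mg/kg rats and 1.68 to 9.496 in controls on day 3. Its change was -2.02 with no offset and -0.25 with an offset of 64, and with the mean over a gene's probe sets in place of the brightest it did not pass.

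Clock genes gave 2 of the negative calls. Per3, a period gene that represses the clock, had signals of 41.7, 16.1, 23.3, 24.2 and 21.2 in 3 mg/kg rats on day 5, against 15.6, 14.97, 17.3, 14.7 and 13.1 in controls. The day 3 arrays gave 33.04, 25.4, 37.3, 28.2 and 35.6 in 3 mg/kg rats, against 2.29, 1.44, 7.40, 15.1 and 1.02 in controls. Treated rats were above all controls on day 3, where 4 of 5 controls had signals under 8, and overlapped with them on day 5 through 1 rat. The effect was 0.38 ± 0.16 on day 5 (adjusted p = 0.131) and 1.19 ± 0.16 on day 3 (adjusted p = 9.27e-07), and the change was -0.81 ± 0.23 (adjusted p = 0.0494). Its size depended on the offset, at -2.60 with none and -0.30 with an offset of 64, and it did not pass with the larger offset (adjusted p = 0.0657). Per3 passed in 2 of the 20 fits that left out 1 array and in 3 of 15 other alternatives. Csnk1e, a casein kinase that phosphorylates period proteins, changed by -0.58 ± 0.14 (adjusted p = 0.0197). Without replicate 4 of the day 5 controls the adjusted p of Csnk1e was 0.0501. Dbp and Per2 had changes of -0.70 ± 0.37 and -0.52 ± 0.28 that did not pass (adjusted p = 0.35 and 0.358). Of 21 measured clock genes, 2 rose and 2 fell on day 5, 6 rose and 4 fell on day 3, and the median change was 0.0011. The shares of all genes were 5.31% higher and 3.49% lower on day 5, and 5.57% and 4.28% on day 3. The hour of day at which rats were killed is not given in the labels.

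**Figure D4:**
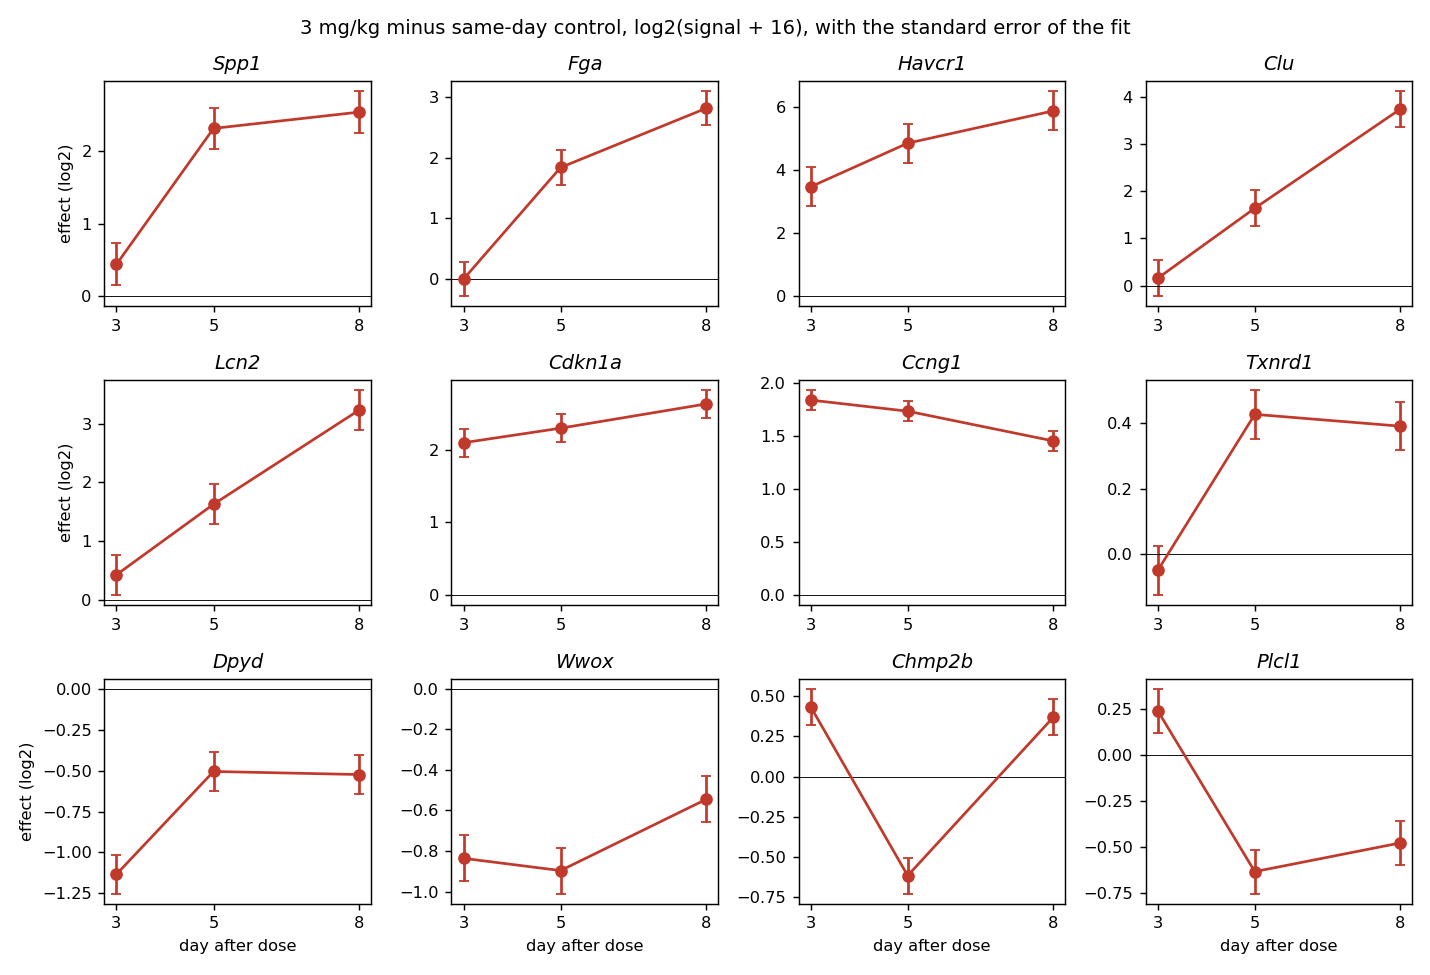
The 3 mg/kg minus same-day control difference, log2(signal + 16), is shown for 12 genes on days 3, 5 and 8, with the standard error of the fit as bars. Spp1 and Fga step up between day 3 and day 5, Cdkn1a and Ccng1 stay well above 0 throughout, and Chmp2b lies below 0 on day 5 and above it on days 3 and 8.

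No gene of the DNA replication or mitosis lists had a called change. Among all genes 5.31% rose and 3.49% fell on day 5, and 5.57% rose and 4.28% fell on day 3. Of 28 DNA replication genes, 9 rose and 0 fell on day 5, and 3 rose and 1 fell on day 3. The change passed for 0 in limma, with 5 higher and 0 lower at an unadjusted p under 0.05, and the median change was 0.02. The nearest was Rrm1, the large subunit of ribonucleotide reductase, at 0.46 ± 0.13 (adjusted p = 0.0623). Mcm6, a helicase subunit of replication origins, had an effect of 0.67 on day 5 and 0.25 on day 3. In the mitosis list of 29 genes, 2 rose on day 5 and 0 on day 3, the median change was 0.19, and 0 passed, with 1 at an unadjusted p under 0.05. That gene was Plk1, the mitotic polo-like kinase, at 0.68 ± 0.26 (adjusted p = 0.184). It was dim, with most signals under the offset of 16. Plk1 signals were 12.6 to 16.04 in 3 mg/kg rats and 0.676 to 10.3 in controls on day 5. Day 3 signals of Plk1 were 1.64 to 13.4 in 3 mg/kg rats and 2.12 to 18.5 in controls. On day 8, 25 of the 29 mitosis genes stood above control, on a day when 2502 of all 11683 genes did (21.4%).

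Chemokine genes had no called change either. In the list of 26 chemokine and inflammation genes, 8 rose and 2 fell on day 5, 2 rose on day 3, and the change passed for 0, with 2 higher and 1 lower at an unadjusted p under 0.05. The shares of all genes were 5.31% higher and 3.49% lower on day 5, and 5.57% higher on day 3. The chemokine Ccl20, which attracts lymphocytes and dendritic cells, had an effect of 1.49 on day 5 and 0.44 on day 3, and a change of 1.05 ± 0.43 (adjusted p = 0.208). Ccl2, the main attractant of monocytes, had 0.97 on day 5 and 0.44 on day 3, and a change of 0.54 ± 0.34 (adjusted p = 0.448). Of 23 macrophage and myeloid genes 0 rose on day 5 and 1 rose on day 3, with a median change of 0.05.

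Among genes that mark the nephron segments, Umod, the uromodulin of the thick ascending limb, had signals of 2792 to 3201 in 3 mg/kg rats and 2999.6 to 3226 in controls on day 5, and 3566 to 4007 in 3 mg/kg rats and 3089 to 3642 in controls on day 3. Its change was -0.21 ± 0.74, with a 95% interval of -1.70 to 1.27, and Egf, the growth factor of the distal nephron, had -0.23 ± 0.51. The standard errors here pool the spread of all 57 arrays, days 8 and 26 included. Within the 4 groups compared, the SD of Umod signals was 97.2 to 211. Slc12a1, the sodium-potassium-chloride cotransporter of the thick ascending limb, had the most negative change of the 23 loop of Henle and distal tubule genes, at -0.75 ± 0.58, which did not pass (adjusted p = 0.557). Its signals were 1624, 1326, 1431, 1522 and 1451 in 3 mg/kg rats on day 5, against 1942, 1799.54, 2047, 1986 and 2259 in controls. On day 3 the ranges were 1724 to 2766 in 3 mg/kg rats and 1587 to 1954 in controls. The groups were apart on day 5, with 3 mg/kg lower, and overlapped on day 3. The SD of Slc12a1 signals within the 4 groups was 110 to 439. On day 8 the effects of Umod and Egf were -4.71 and -3.52. The summed signal of 5 loop of Henle and distal tubule markers was 8728 to 10192 in 3 mg/kg rats and 11233 to 12569 in controls on day 5, which did not overlap, against 10738 to 12778 in 3 mg/kg rats and 10736 to 12652 in controls on day 3. Of 43 proximal tubule transporters, 3 rose and 2 fell on day 5 and 3 rose and 3 fell on day 3, with a median change of -0.07. These shares are near those over all genes (5.31% and 3.49% on day 5). Slc6a6, the taurine transporter, passed within the inner medulla list, at 0.53 ± 0.14 (adjusted p = 0.0414), and Gsta1, a glutathione transferase of the proximal tubule, at -0.28 ± 0.077 (adjusted p = 0.0472) within a list of 26 drug-metabolising enzymes. Slc6a6 and Gsta1 did not pass with the actin ratio as a covariate, and passed in 8 and 4 of the 20 fits that left out 1 array.

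In all, 9 of 34 gene lists held at least 1 called gene and 25 held 0. The change was called for 1.52% of all genes, and whether the lists departed from that share was not tested. The median changes of those 25 ran from -0.19 to 0.20. The highest was that of liver and pancreas genes, which include Alb, and the lowest that of endothelial genes, at -0.19 with 0 of 17 passing. Blood cell genes had a median change of 0.17: Hbb, a beta globin, had an effect of -0.68 on day 5 and -1.47 on day 3, and a change of 0.78 ± 0.46 (adjusted p = 0.411). Sfrp2, a secreted Wnt antagonist, had a change of -0.48 ± 0.38 (adjusted p = 0.563).

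**Figure D5:**
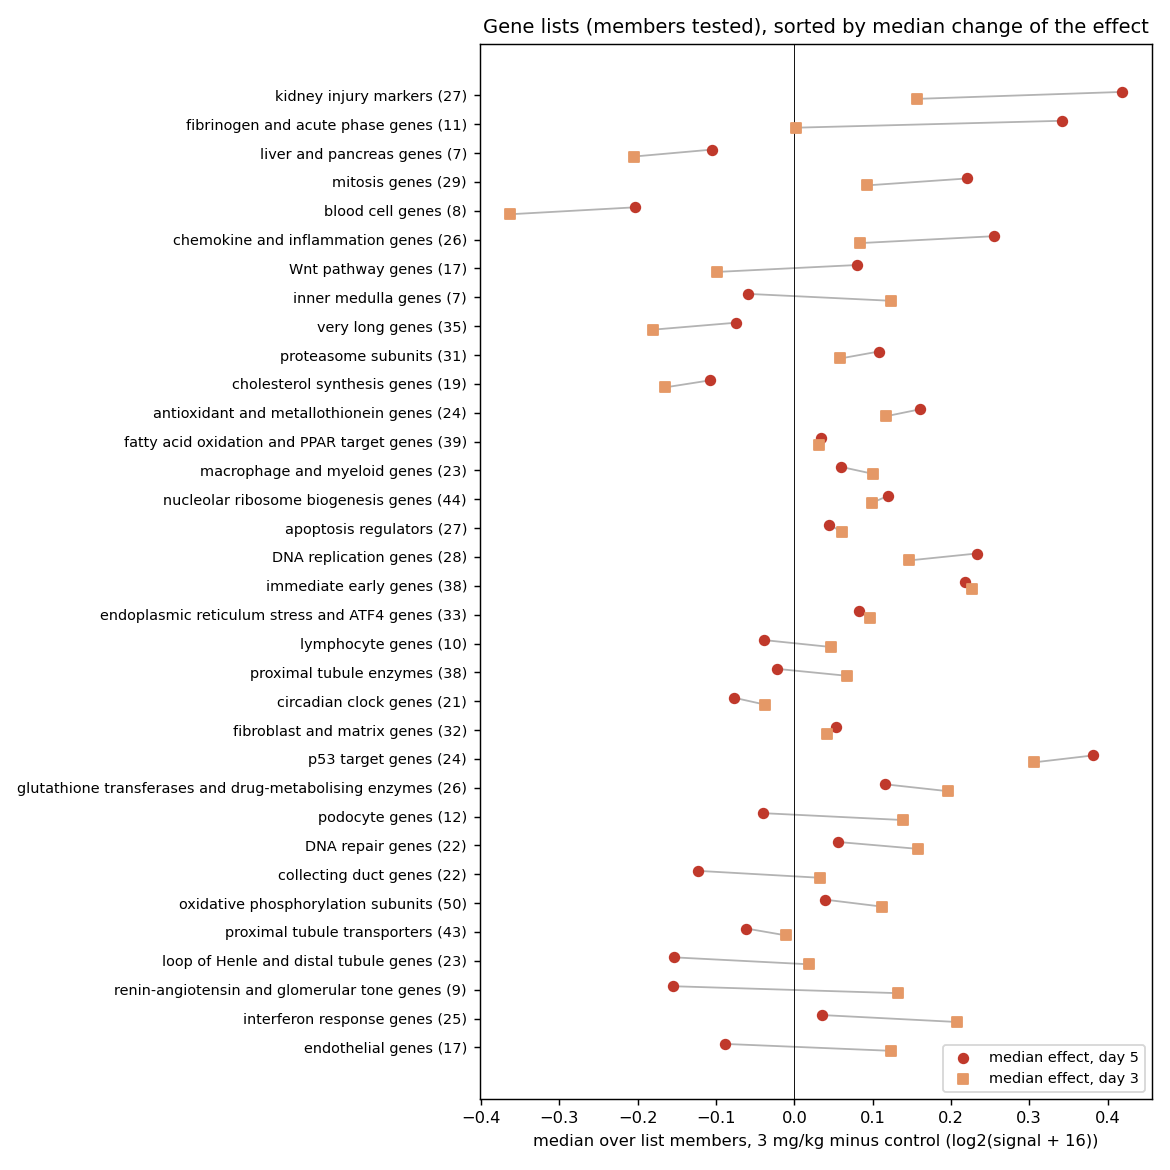
The median 3 mg/kg minus control difference, log2(signal + 16), of each of 34 gene lists is shown on day 5 (circles) and day 3 (squares), with the number of measured genes in brackets and the lists sorted by median change. Kidney injury markers reach 0.42 on day 5 and 0.16 on day 3, while p53 target genes lie at 0.38 and 0.31.

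The number of called genes moved with single arrays and with the actin ratio as a covariate; the part of RNA quality in the single results was not tested. Leaving out each of the 20 arrays in turn gave 67 to 243 called genes, and 50 of the 177 were called in all 20 of these fits (19 higher and 31 lower). With the actin 3'/5' ratio as a covariate 63 genes were called, 61 of them among the 177. The 24 genes that also passed in all 15 other settings with saline controls (11 higher and 13 lower) included Spp1, Fga, Rrp15, Kctd1, Txnrd1, Myd88, Ccnd3, Chmp2b and Plcl1. With 1 mg/kg rats of the same day in place of saline controls, 6 genes were called: Cct2, Gnao1, Klhl12, Polr3d, Ttc39b and Zfp385c. Beside the genes already given as such, 3 groups of named genes did not pass with the actin ratio as a covariate (adjusted p from 0.0603 to 0.0951). These were the rises Olr1, Glycam1, Nubpl and Dpyd, the falls Ros1, Cul4a, Dusp9, Plekhj1 and Neb, and the list members Per3 and Ralgapa1. With 1 mg/kg rats as controls the change of Spp1 was 1.41 (adjusted p = 0.159) and that of Fga 1.89 (adjusted p = 0.0532).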

How the data were processed

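Kidney cortex RNA of single rats was hybridised to Affymetrix Rat 230 2.0 arrays, and the deposited values are signal intensities on a linear scale; the submitters' processing notes name MAS5 as the tool that the authors used. In the deposited table each array has a trimmed mean intensity of 99.99 with 2% left out at each end, and array medians run from 20.3 to 26.1. Of 31099 probe sets, 57 controls were left out, 20826 had 1 gene symbol, 436 several and 9780 none, and 20764 symbols were updated by Entrez number. Signals were analysed as log2(signal + 16). Probe sets above the 40th percentile of their array on at least 3 arrays were kept (21829), with the brightest per gene (11683 genes). limma 3.58.1 in R 4.3.3 fitted 12 group means to all 57 arrays with an intensity trend, two-sided, with Benjamini-Hochberg adjustment within each contrast and a threshold of 0.05. Errors after ± are standard errors of the fit for log2 differences and SD for signals. The number of arrays limits the precision. In the main fit, p-values set each difference of group means against the spread within groups, pooled over all 57 arrays. On simulated data with 11683 genes, 48 of 100 genes changed by 0.5 and 94 of 100 changed by 1 were recovered in this contrast, and 4 unchanged genes were called. The simulated noise was normal and independent for each gene, with the same SD in all groups. It held no shifts shared by the genes of an array, so these counts give no error rate for the 177 calls. Genes were named as the 15 largest positive and 15 largest negative called changes whose treated rats did not overlap between the days, a set of always-named genes, and up to 4 members of each list with the largest change. The genes and lists were chosen with earlier results of these data known. Replicate numbers were not used to pair the samples in the main fit. Over 30 pairs of same-numbered arrays from different groups, deviations from the group means correlated from -0.10 to 0.21 (median 0.027), and 4 exceeded 0.1. Differently numbered arrays were not compared in this way. Alternatives covered the offset, normalization, filter, probe set choice, variance model, array weights, RNA quality covariates and the replicate block. They also covered single arrays left out, the 20 compared arrays alone and 1 mg/kg rats as controls.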

Additional observations from a re-analysis of the deposited data

Results flagged for a closer look

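In 9 of 152 groups of 5 arrays, over 38 genes, 1 array stood far from the other 4 of its group; chance alone gives such an array in about 1 of 20 groups. The Timp1 signal was 32.1 in control day 5 replicate 2, against 63.3 to 74.7 in the other arrays of that group. The Plk2 signal was 104.1 in 3 mg/kg day 5 replicate 2, against 128.6 to 134.2 in the other arrays of that group. The Kctd1 signal was 269.3 in 3 mg/kg day 5 replicate 4, against 307.8 to 318.5 in the other arrays of that group. The Snx7 signal was 404.3 in 3 mg/kg day 5 replicate 5, against 287.4 to 305.4 in the other arrays of that group. The Plxdc2 signal was 104.7 in 3 mg/kg day 5 replicate 5, against 133.4 to 146.3 in the other arrays of that group. The Chmp2b signal was 179.4 in 3 mg/kg day 5 replicate 2, against 155.5 to 158.7 in the other arrays of that group. The Ros1 signal was 62.4 in control day 5 replicate 2, against 91.04 to 97.4 in the other arrays of that group. The Wwox signal was 12.4 in 3 mg/kg day 5 replicate 3, against 16.1 to 17.4 in the other arrays of that group. The Hbb signal was 335.0 in 3 mg/kg day 5 replicate 1, against 1310.9 to 1555.5 in the other arrays of that group. The effect of 3 mg/kg differed between day 5 and day 3 by limma's interaction contrast in 177 genes. Log2 changes above 0 among them included those of Spp1 (1.88), Fga (1.84), Olr1 (0.92), Glycam1 (0.64), Rrp15 (0.87), Pum3 (0.61), Kctd1 (0.72), Txnrd1 (0.48), Myd88 (0.46), Cct5 (0.33), Dpyd (0.63), Nubpl (0.69), Snx7 (0.64), Plxdc2 (0.66) and Dnajb6 (0.63). Those below 0 included Chmp2b (-1.05), Plcl1 (-0.87), Ros1 (-1.14), Cul4a (-0.92), Per3 (-0.81), Dusp9 (-0.81) and Cdca4 (-0.86).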

How the results depend on the processing

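Against 177 called changes (67 higher and 110 lower), array weights gave 381 (155 and 226), the actin ratio as a covariate 63 (22 and 41), and 1 mg/kg rats in place of controls 6 (3 and 3). A fit of the 20 compared arrays alone gave 190 (79 and 111), of which 119 were among the 177. Named genes that did not pass in that fit included Ros1, Glycam1, Slc39a11, Dpyd, Nubpl, Csnk1e and Per3 (adjusted p from 0.0529 to 0.109, limma). The Alb signal as a covariate, chosen after seeing the data, gave 57 (20 and 37). Quantile normalization gave 72 lower. Leaving out 1 array gave 67 to 243 in all, 28 to 102 higher and 39 to 141 lower, with the extremes without replicates 3 and 4 of the 3 mg/kg day 5 rats. Counts more than 1.5 times below 177 also arose without day 3 control replicates 3 and 5 (102 and 83), day 5 control replicates 2, 3 and 4 (87, 87 and 83), 3 mg/kg day 3 replicates 1 and 3 (90 and 108) and 3 mg/kg day 5 replicates 1 and 2 (104 and 97). The day 5 effect gave 464 genes against 1 mg/kg rats, and 547 to 1096 with 1 array left out, against 1028. The day 3 effect gave 2370 with every probe set, 1732 with array weights, 499 with the actin ratio, 365 against 1 mg/kg rats and 676 with the Alb signal, against 1151. The causes were not tested. The replicate block gave 181 genes (78 higher and 103 lower). For 56 called genes followed over all settings, 1578 values stayed past the threshold and 483 did not. Among the 177 genes, averaging over all probe sets of a gene turned the sign of Efr3a, Sbds, Snx27 and Usp34, and 1 mg/kg rats as controls that of Itfg2. These genes were chosen after their values were seen. The offset of 16 sets the size of changes in dim genes such as LOC102548022, Bcan, Per3 and Mcub, and so also any order of genes by size.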
